A study of Mus musculus with 12 samples.

Results

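Type I interferon stimulated genes, the transcripts that cells make in response to interferon alpha and beta, were followed as a list of 44 genes chosen by name. All 44 were found, by Ensembl identifier and symbol, among the 53465 gene identifiers of the count files. The levels come from bulk RNA sequencing of mouse skin with 12 libraries and 4 groups of 3. These were UVB-irradiated and untreated skin of mice with the altered Foxp3 genotype, written DE2 here, and of mice with the Foxp3-WT genotype, written WT. The submitters spell the altered genotype Foxp3-E2, Foxp3-DE2 and Foxp3dExon2 in different fields, and these were taken as 1 genotype. Irradiated skin was a shaved patch of the back flank exposed 6 times to ultraviolet B light (UVB). The dose is 200 mJ/cm2 in the sample labels and 100 mJ/cm2 in the protocol text. Untreated skin came from a control site. Strain, sex, age and any shaving of the control site are not stated in the sources at hand. Libraries are not linked to animals, so some may come from the same mouse, and p-values cover only their spread, which may be technical. Foxp3 encodes the transcription factor of regulatory T cells, and the series title places the work in skin inflammation after UVB.

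Type I interferons bind the receptor formed by IFNAR1 and IFNAR2, whose kinases JAK1 and TYK2 activate transcription factors, STAT2 among them. With IRF9 these form a complex that binds the interferon-stimulated response element in promoters and turns on genes that sense viral RNA, degrade it, block translation and membrane fusion, or modify proteins with ISG15. In skin, keratinocytes, fibroblasts and infiltrating leukocytes can all express these genes, and UVB is a known trigger of interferon responses in lupus-prone skin.

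Promoter sequences are shown first because the response element is the known shared feature of these genes, and it played no part in choosing them. RefSeq promoter windows on GRCm38.p6, 250 bases before to 50 bases after a start site, were held for 35 of the 44 genes, in 41 windows. The core motif searched was GAAA, any 2 bases and GAAA again, on both strands, with overlapping matches counted. It was found in 16 of the 41 windows (39.0%), against 1131 of all 32851 windows (3.44%). The longer form, the core followed directly by CT, was found in 10 of the 41 (24.4%) against 0.271% of all windows. The gamma-activated core, TTC, any 3 bases and GAA, was found in 7 of the 41 (17.1%) against 8.30% of all windows. A match is a run of letters and not a measured binding site.

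The windows of Isg15, Ifitm3 and Ifitm1 are printed in full because they span what was found. Isg15, on the minus strand at chr4:156200769-156201068, holds 3 overlapping core matches upstream of the start. Ifitm3, on the minus strand at chr7:141010695-141010994, holds 2 just after it. Ifitm1, on the plus strand at chr7:140967826-140968125, holds no match. The start site of the Ifitm1 window lies 855 bases downstream of the annotated gene start, and the region before that start was not searched. For 31 of the 35 genes a window began within 100 bases of the annotated start, and for Ifitm1, Dtx3l, Irf9 and Trim30b none did. Capitals mark the core matches.
Isg15: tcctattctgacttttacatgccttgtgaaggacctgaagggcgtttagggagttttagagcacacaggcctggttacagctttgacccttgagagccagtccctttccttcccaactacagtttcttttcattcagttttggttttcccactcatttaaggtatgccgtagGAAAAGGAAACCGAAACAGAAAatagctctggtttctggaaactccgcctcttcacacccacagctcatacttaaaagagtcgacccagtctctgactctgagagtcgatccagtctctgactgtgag
Ifitm3: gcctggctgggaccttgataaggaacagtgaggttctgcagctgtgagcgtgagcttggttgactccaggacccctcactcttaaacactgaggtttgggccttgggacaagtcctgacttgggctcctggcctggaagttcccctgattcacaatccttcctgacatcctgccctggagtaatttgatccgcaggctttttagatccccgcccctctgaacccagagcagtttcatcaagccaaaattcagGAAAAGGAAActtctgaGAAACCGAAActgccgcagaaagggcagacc
Ifitm1: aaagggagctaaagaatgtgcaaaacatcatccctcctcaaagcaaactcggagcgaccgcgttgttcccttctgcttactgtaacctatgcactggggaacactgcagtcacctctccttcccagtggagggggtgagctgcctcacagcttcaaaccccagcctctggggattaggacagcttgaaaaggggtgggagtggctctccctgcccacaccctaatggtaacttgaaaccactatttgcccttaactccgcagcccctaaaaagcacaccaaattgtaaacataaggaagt

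Single sites with 8 bases on either side are given for other genes that differed between the genotypes or with UVB. Ifit3b, which passed in no comparison, is shown beside Ifit3. Ifit1, Ifit3, Rsad2 and Trim30a carry the motif in the reverse orientation, so their capitals read TTTC, 2 bases and TTTC. The Oas1a and Oas1g sites have identical letters, as do those of Ifit3 and Ifit3b.
Bst2 at -130: cattccagGAAAATGAAActgaaagg
Ifit1 at -104: ggcttcagTTTCACTTTCcagtctca
Ifit1 at -85: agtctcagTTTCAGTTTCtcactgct
Ifit3 at -156 and Ifit3b at -188: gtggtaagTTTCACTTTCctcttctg
Oas1a at -20 and Oas1g at -18: cttctcggGAAATGGAAActgaaaat
Oas3 at -75: agggaggaGAAAACGAAAgtgaaggg
Rsad2 at -120: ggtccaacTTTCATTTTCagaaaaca
Trim30a at -36: ttctttagTTTCTTTTTCtcagttcc

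Positions are counted from the RefSeq start site of each gene. The windows of Irf7, Oasl1, Trim25, Isg20 and Xaf1 held no core match, which says only that these letters are not in those windows.

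**Figure D1:**
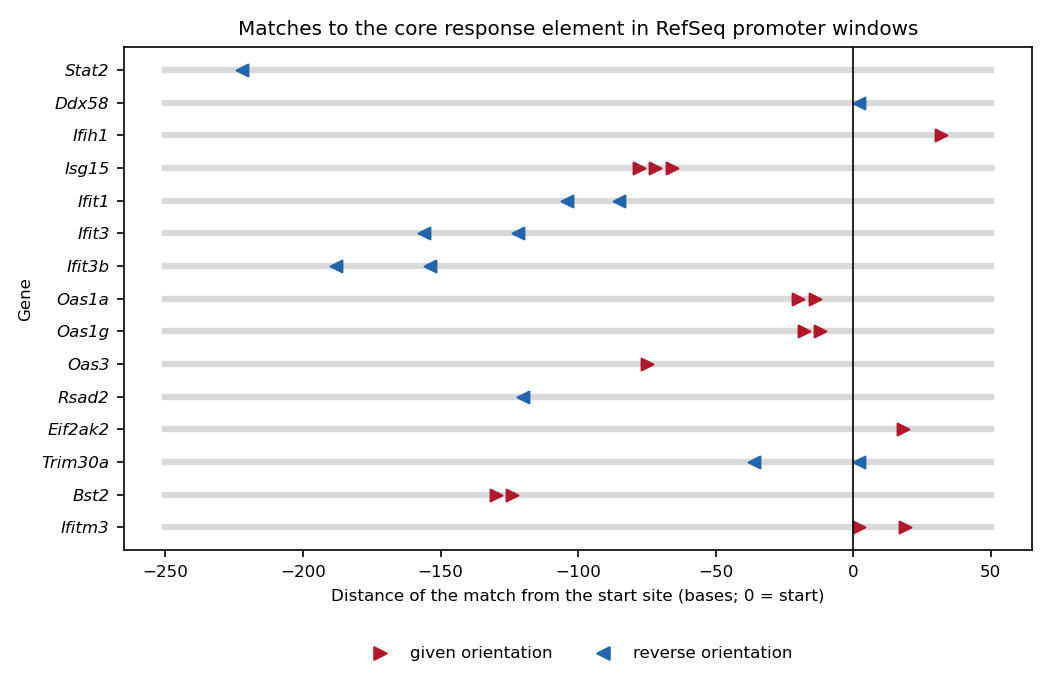
Distance in bases of each core match (arrowheads, red in the given and blue in the reverse orientation) from the RefSeq start site, for the 15 genes with a match. Grey bars are the windows searched, and most matches lie upstream of the start, while those of Ifitm3, Ddx58, Ifih1 and Eif2ak2 and 1 of Trim30a lie after it.

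Total counts per library were 2809142 to 4062053 in irradiated DE2, 2915273 to 4212640 in irradiated WT, 4205055 to 4741726 in untreated DE2 and 3852586 to 4392982 in untreated WT skin. Foxp3 had 8 counts in irradiated DE2 skin and 0 in the 9 other libraries, so it cannot check the genotype labels. Keratinocyte markers were present in every library, at a summed 4388 to 25777 CPM (counts scaled to a common library size). Untreated DE2 libraries stood apart. Their 9 hair follicle markers summed to 110 to 600 CPM, against 7386 to 14222 CPM in untreated WT, and their 11 skeletal muscle markers to 55563 to 123750 CPM, against 25231 to 32210 CPM in untreated WT. Among irradiated WT libraries, replicate 2 was apart in muscle markers, at 53397 CPM against 11907 CPM in the lowest library of that group. These differences in tissue content run with genotype in untreated skin and with UVB in DE2 skin, and cannot be told apart from them there. Hair follicle markers also ran with genotype in irradiated skin, at 6669 to 10655 CPM in DE2 and 15780 to 18075 CPM in WT.

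Summed over the 44 genes, levels were highest in irradiated DE2 skin. The sum was 2230 ± 150 CPM in irradiated DE2, 857 ± 50.8 CPM in irradiated WT, 1204 ± 375 CPM in untreated DE2 and 643 ± 83.7 CPM in untreated WT (SD, n = 3 each). The 3 irradiated DE2 libraries, at 2198, 2394 and 2098 CPM, lay above all 9 others. Untreated DE2 libraries spread widely, at 1522, 791 and 1300 CPM, and overlapped irradiated WT libraries at 861, 906 and 805 CPM. Untreated WT libraries held 715, 551 and 664 CPM. Ifitm3 and Ifi27l2a, both short and abundant transcripts, made up 32.4% to 53.5% of the sum in a library. Without them the sums were 1430 ± 201 CPM in irradiated DE2, 521 ± 10.7 CPM in irradiated WT, 622 ± 213 CPM in untreated DE2 and 334 ± 40.7 CPM in untreated WT. In bulk tissue, fewer cells of a type and less RNA per cell cannot be told apart.

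**Figure D2:**
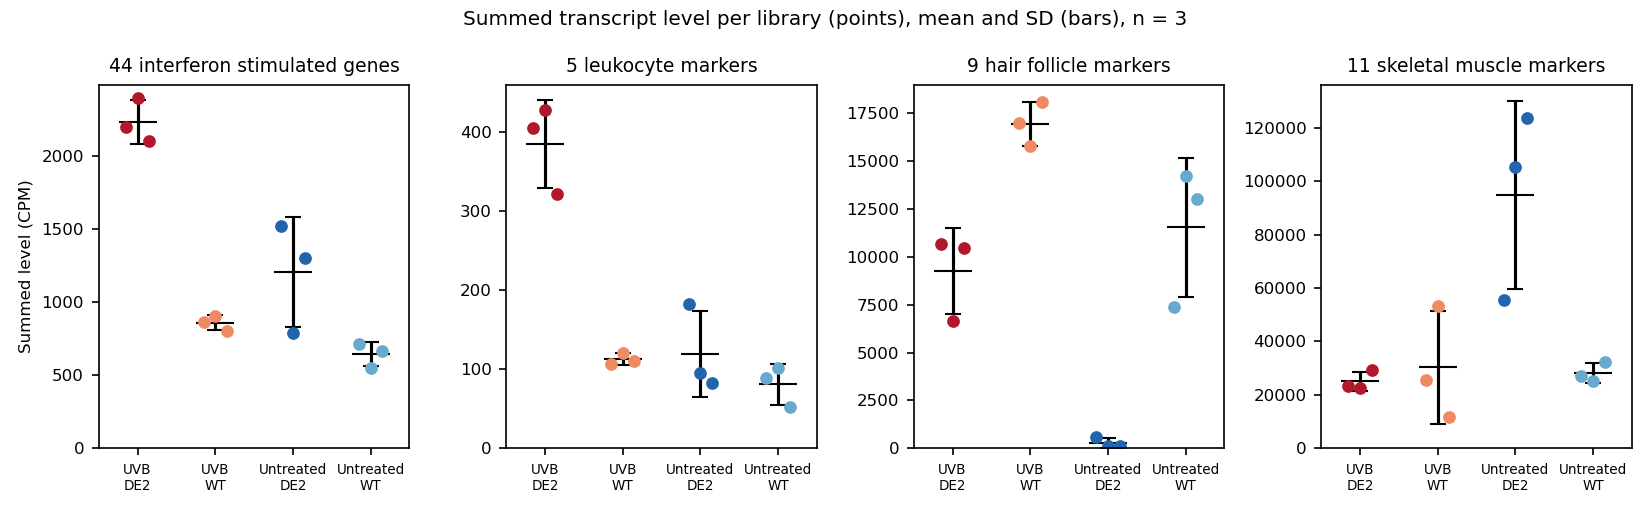
Summed CPM per library (points) with mean and SD (bars, n = 3) for the 44 interferon stimulated genes and for leukocyte, hair follicle and skeletal muscle markers, each on its own axis from 0. The interferon stimulated genes and the leukocyte markers are both highest in irradiated DE2 skin, while hair follicle markers are near 0 in untreated DE2 skin, where muscle markers are highest.

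Of the 44 genes, 43 passed the filter on low counts and were tested, and Mx2 did not. Trim30b, Oasl1, Oas1g, Oas3 and Ifi44 passed it only through the irradiated DE2 libraries. Any call of these genes is counted below but is no support for a difference. In irradiated skin, 13 of the 43 (30.2%) were higher in DE2 than in WT and 0 were lower. Of all 15126 genes tested 2.35% were higher and 0.608% lower. These 13 were Ifitm1, Trim25, Ifitm3, Rsad2, Bst2, Rtp4, Trim30a, Isg20, Trim30b, Oasl1, Xaf1, Ifit1 and Isg15. The fold changes were positive for 41 of 43 genes (47.1% of all genes), and the median log2 fold change was 1.48, against -0.03 over all genes. In 29 of the 43 all 3 DE2 libraries lay above all 3 WT libraries (67.4%), which held for 11.9% of all genes. Adjusted p-values are from the quasi-likelihood test of edgeR, with Benjamini-Hochberg adjustment over all genes and a threshold of 0.05, and the error of a log2 fold change is an approximate SE. Ifitm1, Ifitm3, Rsad2 and Trim25 passed under all 16 alternatives (highest adjusted p = 0.0481). The count was 21 with no filter on low counts, where 665 of all 28874 genes were higher. It was 5, 5 and 9 without irradiated DE2 replicate 1, 2 or 3, and 6, 8 and 5 without irradiated WT replicate 1, 2 or 3. Over all genes those fits called 173, 114 and 231, and 171, 334 and 131 higher. A further fit had as covariate the hair follicle score, the mean log2 level of the hair follicle markers. It lost 4 of the 13 calls, those of Isg15, Isg20, Oasl1 and Trim30b. Over all 15126 genes that fit called 230 higher and 36 lower.

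In untreated skin, 12 of 43 genes (27.9%) were higher in DE2 than in WT and 0 were lower. Of all genes 11.8% were higher and 11.2% lower. They were Parp14, Ifitm3, Ifit1, Bst2, Ifi35, Rsad2, Xaf1, Ifit3, Trim30b, Rtp4, Usp18 and Trim25. The median log2 fold change was 0.91, against 0.03 over all genes, and in 14 of 43 (32.6%) the DE2 libraries all lay above the WT libraries, against 19.4% of all genes. The count depended on the libraries. It was 6 without untreated DE2 replicate 1, the library with the highest sum and the least muscle of its group. It was 5, 4 and 5 without untreated WT replicate 1, 2 or 3. Over all genes those fits called 1996, and 899, 810 and 1005 higher. With the hair follicle score as a covariate 0 of 15126 genes passed here. With the muscle score 3 of the 43 were higher, and over all genes 20 were higher and 328 lower. Scaling by library totals left 4, and over all genes moved the calls to 788 higher and 3011 lower, against 1782 and 1695.

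The 2 genotype comparisons share no library. Bst2, Ifit1, Ifitm3, Rsad2, Rtp4, Trim25, Trim30b and Xaf1 were higher in both, 61.5% of those called in irradiated and 66.7% of those called in untreated skin. Over all genes, 68 were higher in both, 19.1% of the 356 called in irradiated and 3.82% of the 1782 called in untreated skin. Ifitm1, Isg15, Isg20, Oasl1 and Trim30a passed in irradiated skin alone, Ifi35, Ifit3, Parp14 and Usp18 in untreated skin alone, and 27 in neither. Trim30b and Oasl1 are counted here, though they passed the filter on low counts only through the irradiated DE2 libraries. A call at one site and not at the other does not show a difference between sites, and the interaction below tests it.

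**Figure D3:**
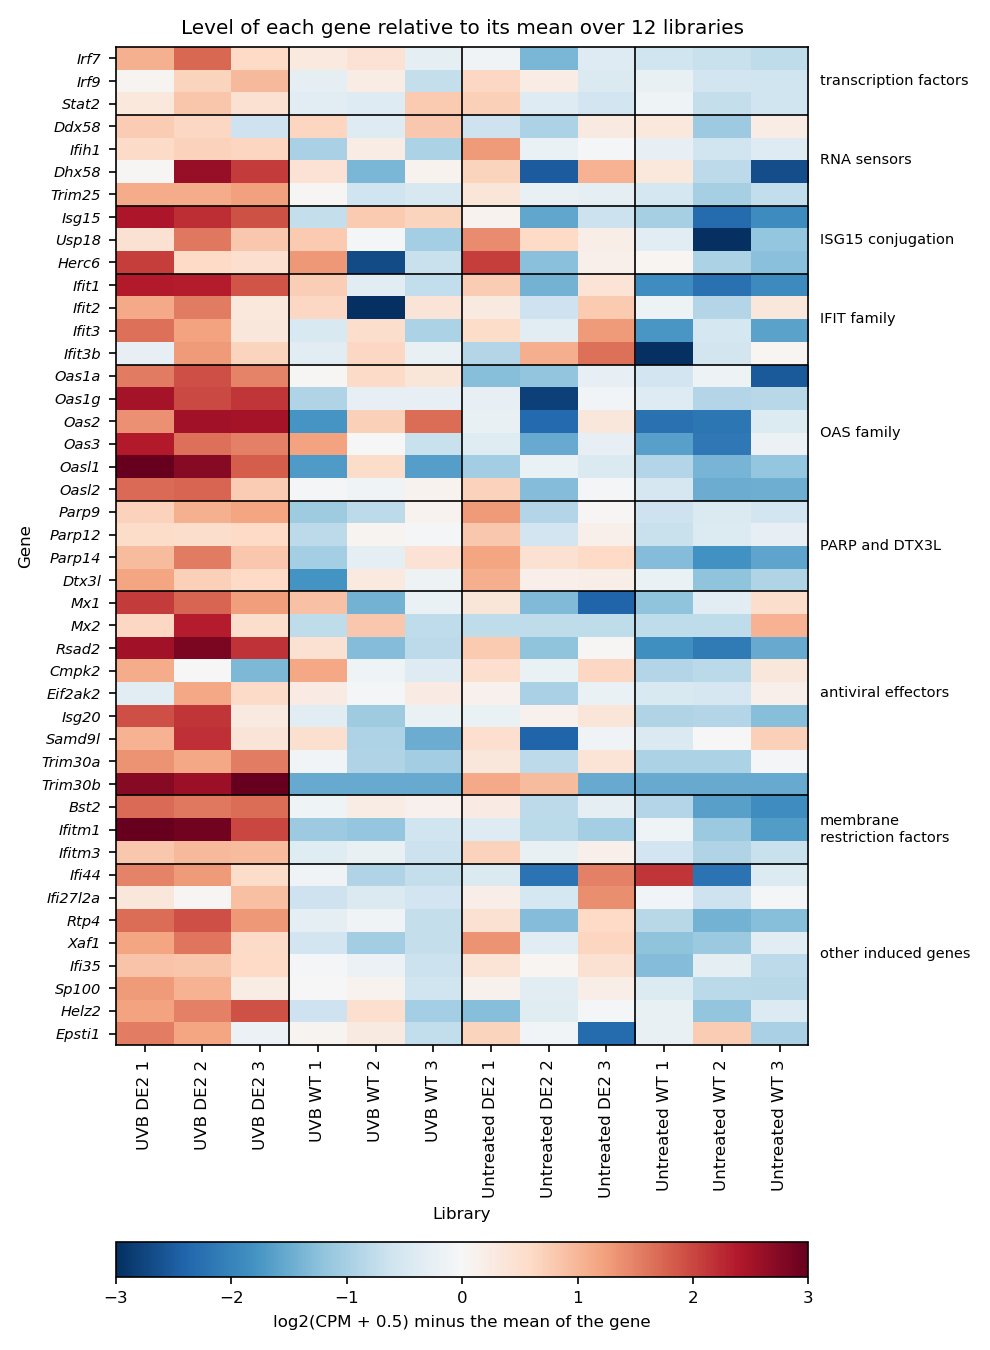
Log2(CPM + 0.5) of each of the 44 genes (rows, by role) in each library (columns), minus the mean of the gene over 12 libraries, with the colour scale cut at 3 on either side. Irradiated DE2 libraries are red in most rows, and untreated DE2 replicate 2 is bluer than the other 2 libraries of its group.

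Among the transcription factors, which carry or amplify the signal, none of the 3 passed in either genotype comparison. Of all genes 2.35% were higher in irradiated and 11.8% in untreated DE2 skin, so 0 of 3 is near those shares. Irf7, the master factor for interferon alpha genes, was at 59.0, 93.2 and 41.9 CPM in irradiated DE2 libraries and at 34.2, 37.9 and 22.8 CPM in irradiated WT libraries. Irf7 in untreated skin was at 25.8, 10.5 and 21.1 CPM in DE2 and at 18.3, 17.2 and 16.1 CPM in WT. The irradiated groups did not overlap and the untreated groups did, and the log2 fold change in irradiated skin was 1.03 ± 0.35 (adjusted p = 0.145). With UVB, Irf7 rose in DE2 by 1.76 ± 0.36 (adjusted p = 0.00251). Irf9, a DNA-binding part of the complex at the response element, was at 52.2, 78.4 and 96.2 CPM in irradiated DE2 and at 40.5, 57.1 and 29.8 CPM in irradiated WT libraries. Irf9 in untreated skin was at 75.3, 57.4 and 36.4 CPM in DE2 and at 42.2, 32.6 and 32.1 CPM in WT. Its groups overlapped at both sites. Stat2 overlapped too, with a fold change of 0.41 ± 0.39 in irradiated skin.

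Of the 4 RNA sensors and their partners, Trim25, the ubiquitin ligase that acts with RIG-I, was the one that passed. That is 25% at either site, against 2.35% of all genes in irradiated and 11.8% in untreated skin. Trim25 was at 93.3, 93.4 and 101 CPM in irradiated DE2 libraries and at 44.4, 28.0 and 30.7 CPM in irradiated WT libraries. Trim25 in untreated skin was at 55.1, 36.5 and 35.8 CPM in DE2 and at 29.6, 21.2 and 25.4 CPM in WT. DE2 libraries lay above WT libraries at both sites, by 1.48 ± 0.25 in irradiated (adjusted p = 0.00494) and by 0.74 ± 0.25 in untreated skin (adjusted p = 0.0437) on the log2 scale. The sensors did not pass in irradiated skin. Ifih1, encoding MDA5, stood at 1.12 ± 0.46, and Dhx58, encoding LGP2, at 2.17 ± 1.01 with 4.08 to 26.6 CPM in irradiated DE2 libraries. Ddx58, encoding RIG-I, stood at -0.05 ± 0.52 and overlapped at both sites.

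ISG15 is a ubiquitin-like protein that Herc6 attaches to targets in mice and Usp18 removes. Isg15 was at 92.2, 80.8 and 64.9 CPM in irradiated DE2 libraries and at 10.1, 29.3 and 27.1 CPM in irradiated WT libraries. Isg15 in untreated skin was at 18.3, 5.38 and 10.6 CPM in DE2 and at 8.27, 3.03 and 4.17 CPM in WT. The irradiated groups were well apart and the untreated ones overlapped, with 1.84 ± 0.46 in irradiated skin (adjusted p = 0.0424) and 1.15 ± 0.50 in untreated skin (adjusted p = 0.112). Usp18, which also damps the receptor, passed at the other site. Usp18 was at 18.8, 41.4 and 24.1 CPM in irradiated DE2 and at 23.8, 13.3 and 6.39 CPM in irradiated WT libraries, which overlapped. Usp18 in untreated skin was at 37.0, 20.7 and 15.6 CPM in DE2 and at 10.7, 0.932 and 5.84 CPM in WT, with no overlap and a log2 fold change of 2.06 ± 0.65 (adjusted p = 0.0325). Herc6 overlapped at both sites.

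IFIT proteins bind foreign RNA and block its translation. Ifit1 was at 46.2, 45.0 and 32.4 CPM in irradiated DE2 libraries and at 14.5, 6.64 and 4.87 CPM in irradiated WT libraries. Ifit1 in untreated skin was at 14.6, 2.83 and 11.4 CPM in DE2 and at 1.96, 1.40 and 1.88 CPM in WT. DE2 was above WT in every library at both sites, by 2.24 ± 0.52 (adjusted p = 0.031) in irradiated and 2.44 ± 0.59 (adjusted p = 0.00799) in untreated skin. Ifit3 was higher in untreated DE2 skin by 1.95 ± 0.58 (adjusted p = 0.0242) and stood at 1.37 ± 0.55 in irradiated skin. Ifit3 shares 51.2% of its 50-base words with Ifit3b, so the split of reads between them is uncertain. Ifit2 and Ifit3b did not pass, and Ifit2 had 0 counts in irradiated WT replicate 2.

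The OAS family senses double-stranded RNA and activates RNase L. Oasl1, a family member without that enzyme activity, was at 26.1, 16.2 and 8.38 CPM in irradiated DE2 libraries and at 0.274, 3.20 and 0.304 CPM in irradiated WT libraries. Oasl1 in untreated skin was at 0.731, 1.70 and 1.39 CPM in DE2 and at 0.871, 0.466 and 0.625 CPM in WT. It stood out in irradiated DE2 and was low in the 3 other groups, with 15 counts over the irradiated WT group. The log2 fold change in irradiated skin was 3.68 ± 0.85. Oasl1 passed the filter on low counts only through the irradiated DE2 libraries, so no p-value is given. Oasl2 was at 84.3, 87.1 and 44.5 CPM in irradiated DE2 and at 25.2, 23.9 and 27.7 CPM in irradiated WT libraries. Oasl2 in untreated skin was at 41.7, 10.2 and 24.7 CPM in DE2 and at 18.1, 8.85 and 8.96 CPM in WT, where the groups overlapped. Its log2 fold changes were 1.50 ± 0.43 in irradiated (adjusted p = 0.0784) and 1.10 ± 0.44 in untreated skin (adjusted p = 0.0872). The other 4 genes, Oas1a, Oas1g, Oas2 and Oas3, had fold changes of 1.37 to 2.90 in irradiated and -0.04 to 1.15 in untreated skin, and none passed. Oas1a shares 57.6% of its 50-base words with Oas1g. In UVB against untreated DE2 skin all 6 family members rose, by 1.49 to 3.71 (14.4% of all genes rose). Each of the 6 separated the groups completely, as did 22.0% of all genes. Oasl1, Oas1g and Oas3 passed the filter on low counts only through the irradiated DE2 libraries. Their calls are no support for a difference. Of 16 alternatives the call was kept in 7 for Oas3, 9 for Oas2, 10 for Oasl2, 14 for Oas1a, 14 for Oas1g and 15 for Oasl1. None of the 6 passed with the hair follicle score as a covariate.

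The PARP and DTX3L group modifies proteins by ADP-ribosylation and ubiquitination. Parp14 was at 34.8, 53.5 and 31.7 CPM in irradiated DE2 libraries and at 8.49, 14.5 and 24.3 CPM in irradiated WT libraries. Parp14 in untreated skin was at 41.2, 24.6 and 27.0 CPM in DE2 and at 6.97, 4.66 and 5.63 CPM in WT. Neither site showed overlap, and Parp14 had the smallest p of the 43 genes tested in untreated skin, at 2.42 ± 0.41 (adjusted p = 0.000821), against 1.35 ± 0.38 in irradiated skin (adjusted p = 0.0747). Parp9, Parp12 and Dtx3l passed in neither, at 0.78 to 1.52 in irradiated and 0.69 to 1.29 in untreated skin. Parp9 and Dtx3l overlap by 458 exon bases on opposite strands, and the strand setting of the counting is not given. None of the 4 passed with UVB in DE2, where their fold changes were 0.30 to 0.60 and 14.4% of all genes were higher.

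Antiviral effectors act on viral replication directly. Rsad2, encoding viperin, was at 59.0, 72.8 and 45.6 CPM in irradiated DE2 libraries and at 13.7, 3.69 and 5.47 CPM in irradiated WT libraries. Rsad2 in untreated skin was at 17.3, 3.96 and 10.0 CPM in DE2 and at 2.39, 1.86 and 3.13 CPM in WT. All DE2 libraries exceeded the WT libraries of their site, by 2.96 ± 0.53 in irradiated (adjusted p = 0.0074) and 2.07 ± 0.56 in untreated skin (adjusted p = 0.0164). Cmpk2, a nucleotide kinase gene, is the neighbour of Rsad2 on chromosome 12 (Rsad2 at 26442746 to 26456452, minus strand, and Cmpk2 at 26469204 to 26479837, plus strand, GRCm38). Cmpk2 stood at -0.14 ± 0.65 in irradiated and 0.72 ± 0.66 in untreated skin and did not pass in any comparison.

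Trim30b, a TRIM family gene, was counted in DE2 skin alone. It had 8.98, 7.99 and 13.5 CPM in irradiated DE2 and 2.68, 2.26 and 0 CPM in untreated DE2 libraries, and no count in the 6 WT libraries. Against a floor of 3 counts over the WT group it was at least 35.8-fold higher in irradiated DE2 and at least 7.71-fold higher in untreated DE2 skin. Trim30b passed the filter on low counts only through the irradiated DE2 libraries, so no p-value is given. Its call in untreated skin was lost in 9 of 15 alternatives. Trim30a was higher in irradiated skin by 2.01 ± 0.41 (adjusted p = 0.0166) and Isg20, an exonuclease gene, by 2.23 ± 0.48 (adjusted p = 0.0207). Mx2, a dynamin-like GTPase gene that the annotation marks as a polymorphic pseudogene, was too low to be tested. It had 0.816, 3.87 and 0.729 CPM in irradiated DE2, 0, 0.984 and 0 CPM in irradiated WT, 0 CPM in each untreated DE2 and 0, 0 and 1.25 CPM in untreated WT libraries. In DE2, irradiated over untreated skin was at least 7.45-fold higher for Mx2, from 21 counts, a bound that covers counting error only. Mx1, Eif2ak2 and Samd9l did not pass at either site, with fold changes of 0.46 to 1.92 in irradiated and -0.65 to -0.04 in untreated skin.

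Membrane restriction factors hold virus particles at the cell surface or block their fusion. All 3 were higher in irradiated DE2 than in WT skin, against 2.35% of all genes. Ifitm1 was at 102, 89.5 and 48.5 CPM in irradiated DE2 libraries and at 5.21, 4.92 and 7.60 CPM in irradiated WT libraries. Ifitm1 in untreated skin was at 8.77, 6.51 and 5.56 CPM in DE2 and at 10.7, 5.13 and 3.34 CPM in WT. The 3 irradiated DE2 libraries were far above the 9 others, which overlapped one another, and the log2 fold changes were 3.76 ± 0.44 in irradiated (adjusted p = 0.00058) and 0.13 ± 0.43 in untreated skin (adjusted p = 0.867). Ifitm3 was at 587, 650 and 649 CPM in irradiated DE2 and at 259, 284 and 212 CPM in irradiated WT libraries. Ifitm3 in untreated skin was at 538, 288 and 372 CPM in DE2 and at 224, 178 and 211 CPM in WT. DE2 lay above WT at both sites, by 1.32 ± 0.22 in irradiated (adjusted p = 0.00516) and 0.97 ± 0.22 in untreated skin (adjusted p = 0.00639). Per kilobase of exon, Ifitm3 had the highest level of the 44 genes in every group, 927 CPM per kilobase in irradiated DE2, 371 in irradiated WT, 589 in untreated DE2 and 301 in untreated WT. Bst2, encoding tetherin, was higher in DE2 by 1.58 ± 0.30 in irradiated (adjusted p = 0.0101) and 1.21 ± 0.31 in untreated skin (adjusted p = 0.0117). Ifitm3 shares 10.0% of its 50-base words with other genes and Ifitm1 5.0%.

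**Figure D4:**
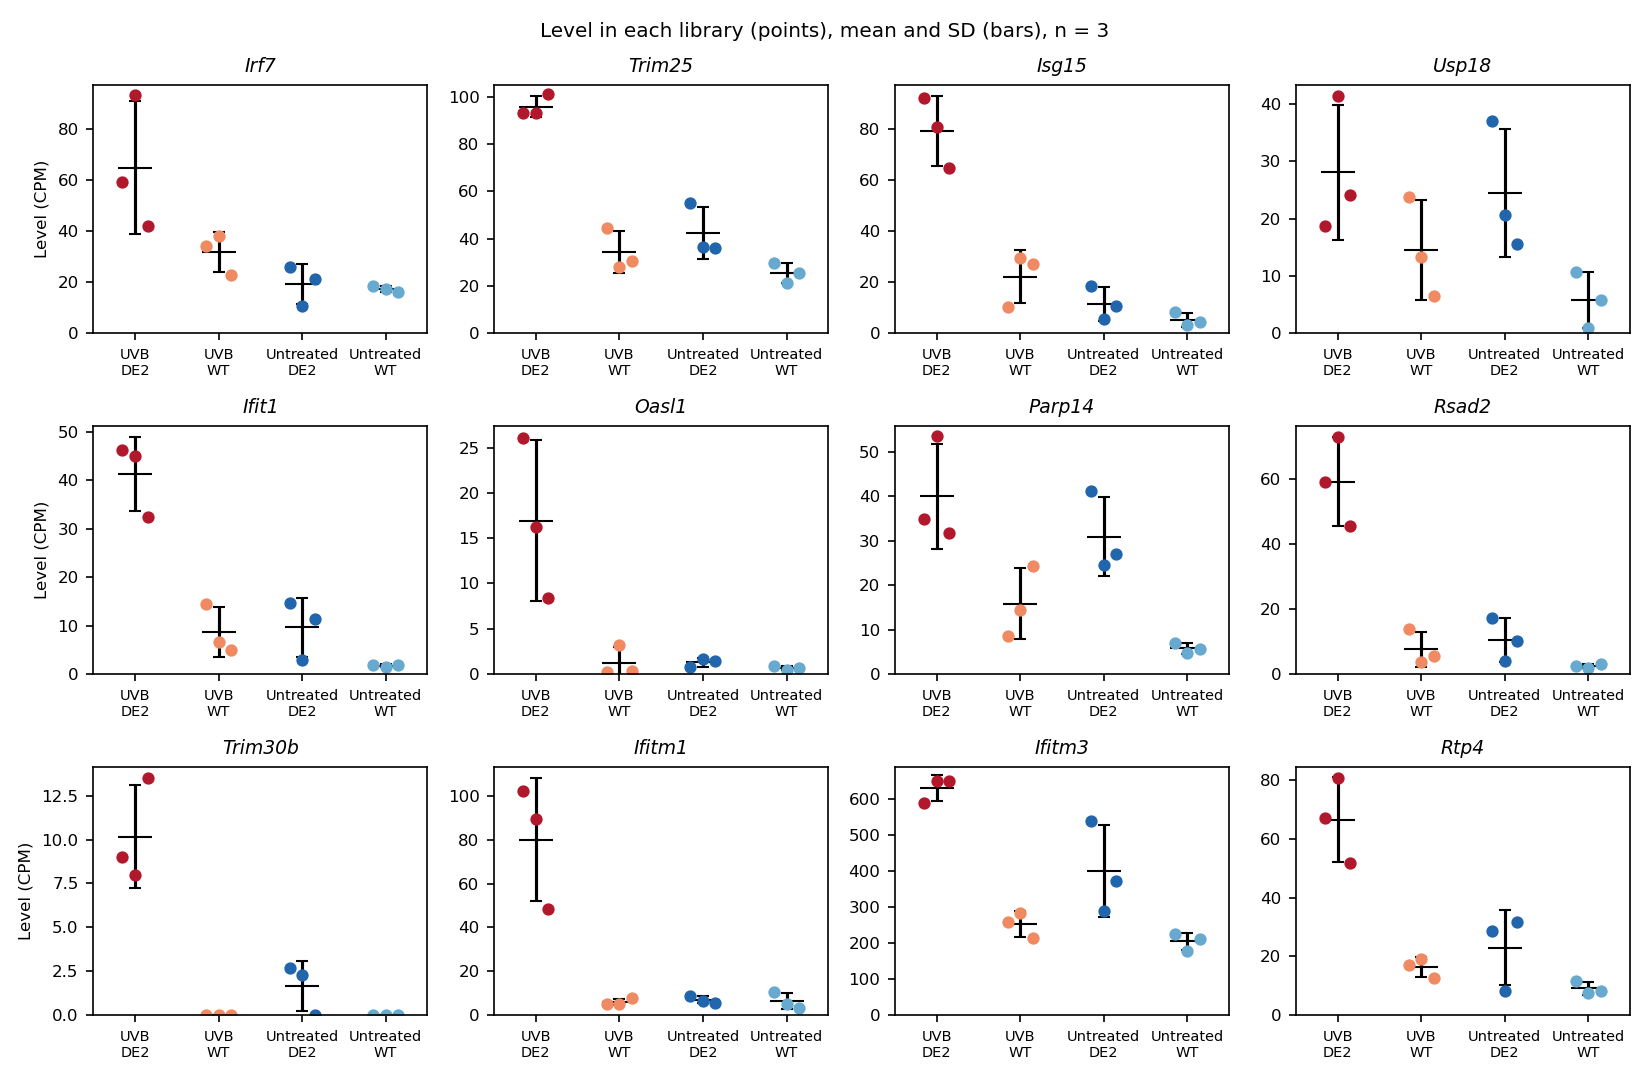
CPM per library (points) with mean and SD (bars, n = 3) of 12 of the genes, each on its own axis from 0. Ifitm1 and Oasl1 are high in irradiated DE2 skin alone, Usp18 and Parp14 reach similar levels in irradiated and untreated DE2 skin, and Trim30b has no count in WT.

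The other 8 genes are induced by interferon with varied or less settled roles. Rtp4, encoding a receptor transporter, was at 67.2, 80.6 and 51.8 CPM in irradiated DE2 libraries and at 17.0, 19.2 and 12.5 CPM in irradiated WT libraries. Rtp4 in untreated skin was at 28.8, 8.21 and 31.7 CPM in DE2 and at 11.5, 7.46 and 8.34 CPM in WT. Untreated DE2 replicate 2 alone lay within the range of its WT group, and both comparisons passed, at 2.03 ± 0.41 in irradiated (adjusted p = 0.0147) and 1.33 ± 0.42 in untreated skin (adjusted p = 0.0318). Ifi35 was at 61.2, 60.3 and 51.4 CPM in irradiated DE2 and at 33.1, 29.8 and 21.3 CPM in irradiated WT libraries. Ifi35 in untreated skin was at 44.6, 35.4 and 46.7 CPM in DE2 and at 13.5, 27.5 and 19.4 CPM in WT. It did not overlap at either site and had nearly the same fold change at both, 1.04 ± 0.28 (adjusted p = 0.061) in irradiated and 1.07 ± 0.28 (adjusted p = 0.0136) in untreated skin. Xaf1, a gene linked to cell death, was higher at both sites, by 2.03 ± 0.47 in irradiated (adjusted p = 0.0302) and 1.61 ± 0.46 in untreated skin (adjusted p = 0.0213). Ifi27l2a, Ifi44, Sp100, Helz2 and Epsti1 passed at neither site, at 1.01 to 2.06 in irradiated and -0.59 to 0.80 in untreated skin. Of Rtp4's exon bases 13.9% overlap Gm45338 on the same strand, and of Ifi35's 16.8% overlap Gm11626 on the opposite one.

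**Figure D5:**
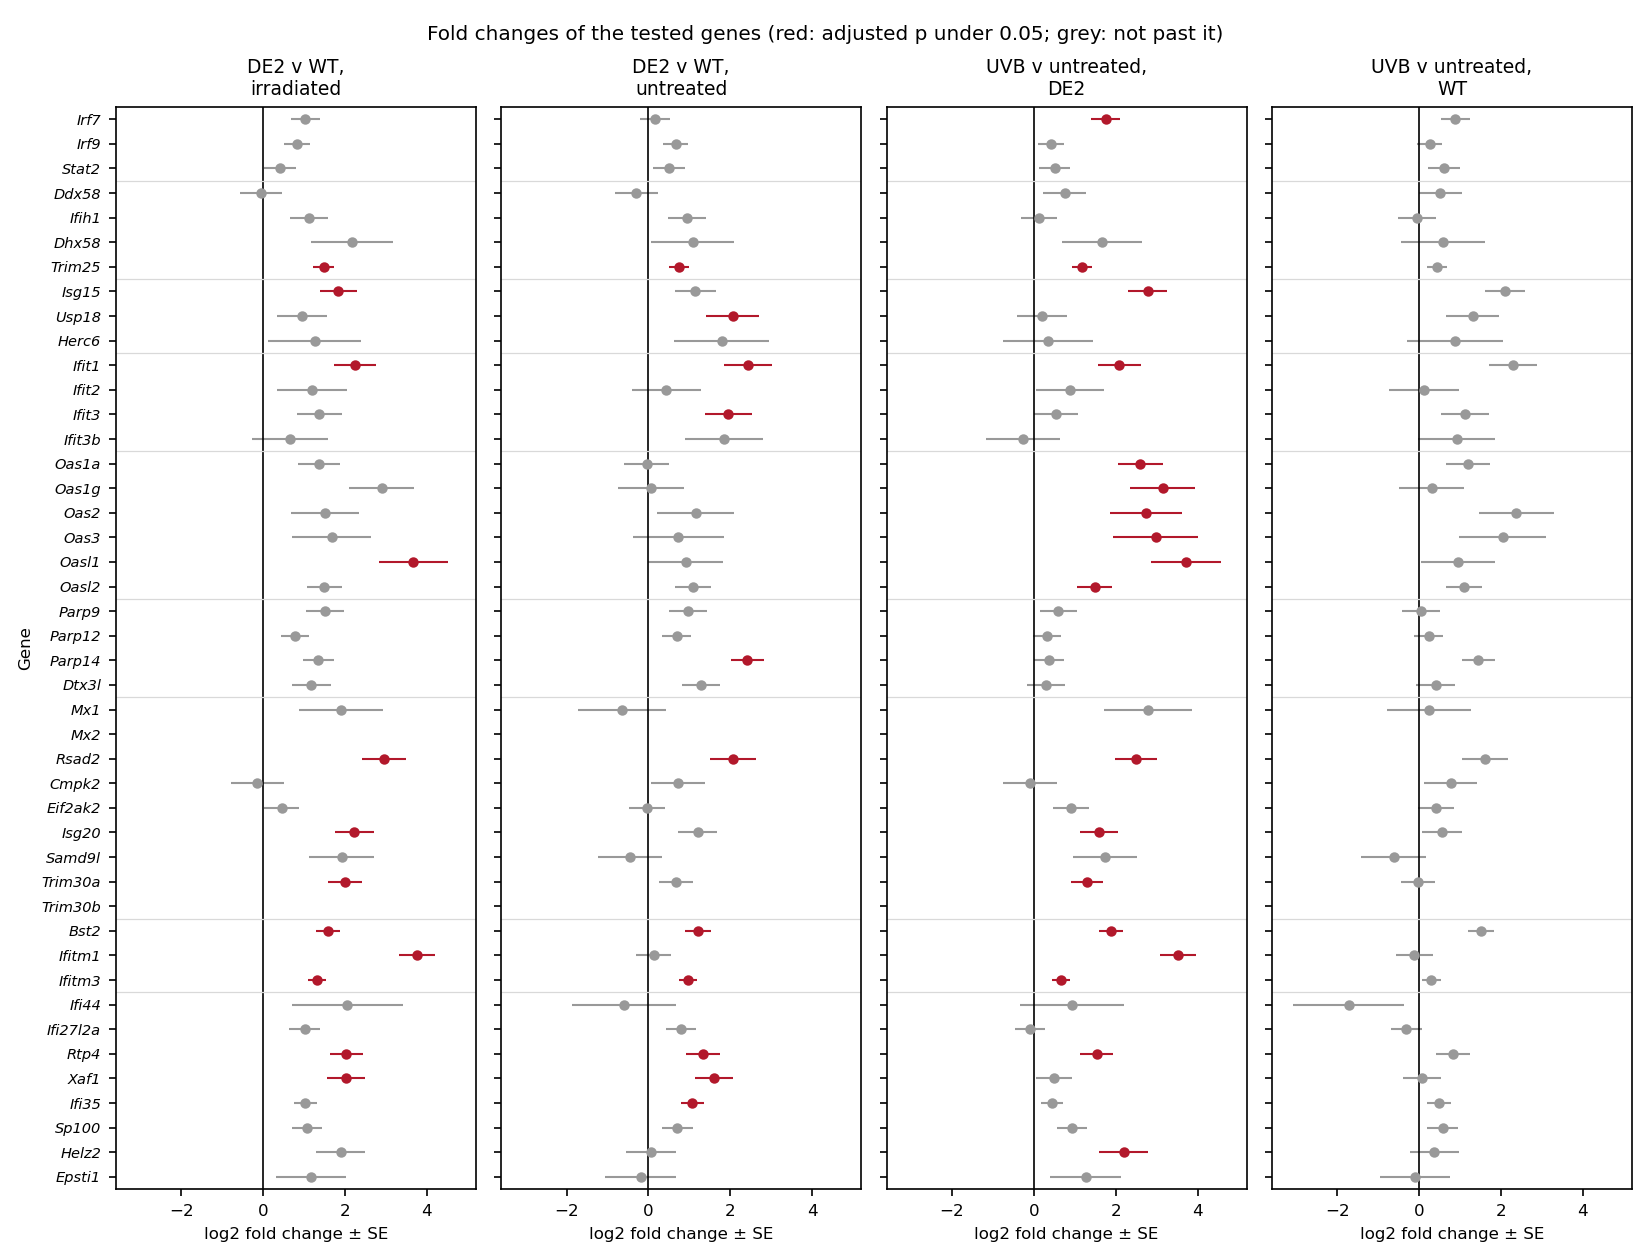
Log2 fold change ± approximate SE of each tested gene in the 4 comparisons of groups, red where the adjusted p is under 0.05 and grey where it is not. Trim30b, which has no count in WT, and Mx2, which was not tested, are not drawn. In irradiated DE2 against WT skin, 41 of the 43 tested genes, Trim30b included, had a positive value.

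With UVB in DE2 skin, 18 of 43 genes (41.9%) were higher in irradiated than in untreated skin and 0 were lower. Of all genes 14.4% were higher and 13.4% lower. This comparison shares its irradiated and its untreated DE2 libraries with the genotype comparisons, so its values are not independent of theirs. The median log2 fold change was 1.17, against 0.02 over all genes, and 21 of 43 genes separated the groups (22.0% of all genes). Besides the 6 OAS genes and Irf7, those that rose were Ifitm1 (3.52 ± 0.43), Isg15 (2.79 ± 0.48), Rsad2 (2.49 ± 0.51), Helz2 (2.19 ± 0.61), Ifit1 (2.09 ± 0.52), Bst2 (1.88 ± 0.30), Isg20 (1.59 ± 0.46), Rtp4 (1.54 ± 0.40), Trim30a (1.30 ± 0.40), Trim25 (1.17 ± 0.25) and Ifitm3 (0.65 ± 0.22), on the log2 scale. With the hair follicle score as a covariate 0 of 15126 genes passed. With the muscle score 3 of the 43 were higher, and over all genes 557 were higher and 142 lower. Rsad2, Ifitm3, Oasl2, Trim30a and Ifit1 then had negative estimates with the hair follicle score. By library totals 19 passed, and calls over all genes moved to 2712 higher and 1368 lower, against 2180 and 2022.

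With UVB in WT skin, 0 of 43 genes passed edgeR's quasi-likelihood test in either direction, against 0.0198% of all genes higher and 0.0% lower. At an unadjusted p under 0.05 there were 9, and the share over all genes was not worked out for that count. DESeq2 called 2, against 19 of all 15126 genes higher, and limma voom 0, against 3. With no filter on low counts edgeR called 4, against 102 of all 28874 genes higher. The median log2 fold change was 0.51, against 0.03 over all genes, and 9 of 43 genes separated the groups, against 4.85% of all genes. The smallest p-values were those of Bst2 (1.51 ± 0.31, adjusted p = 0.264), Isg15 (2.09 ± 0.49, adjusted p = 0.468) and Ifit1 (2.29 ± 0.59, adjusted p = 0.553). The UVB effects of the same genes in DE2 skin were 1.88 ± 0.30, 2.79 ± 0.48 and 2.09 ± 0.52, and the tests of the difference gave 0.37 ± 0.43, 0.69 ± 0.67 and -0.20 ± 0.71, none past the threshold.

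The interaction asks whether the UVB effect differs between DE2 and WT. Of 43 genes 1 passed (2.33%), with a larger value in DE2, against 5.64% of all genes with a positive and 4.84% with a negative interaction. An unadjusted p under 0.05 was reached by 5, and the share over all genes was not worked out. The gene that passed was Ifitm1. Its UVB effect was 3.52 ± 0.43 in DE2 and -0.12 ± 0.44 in WT, a difference of 3.63 ± 0.61 (adjusted p = 0.00181). It did not pass with the hair follicle score (3.62, adjusted p = 0.692) or the muscle score (2.93, adjusted p = 0.0993) as a covariate. The median over the 43 genes was 0.50, against 0.04 over all genes, and was -0.62 with the hair follicle score. DESeq2 called 2 genes, against 1204 of all 15126 genes with a positive interaction. The fit without irradiated WT replicate 2 also called 2, against 676 of all 15735. For Trim30b, with no count in WT, the interaction has no usable estimate.

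Genes with and without a core match in the windows held were set side by side. In irradiated skin 6 of the 15 genes with a match (40.0%) and 6 of the 20 without (30.0%) were higher in DE2, against 2.35% of all genes. The median log2 fold change was 1.37 in either set. In untreated skin the counts were 5 of 15 and 4 of 20, against 11.8% of all genes. With UVB in DE2 they were 9 of 15 and 7 of 20, against 14.4%. These are descriptions with no test. The set without a match holds Ifitm1, Trim30b, Dtx3l and Irf9, whose windows did not begin within 100 bases of the annotated start. Ifitm1 and Trim30b, at 855 and 11238 bases downstream, are among the 6 called without a match in irradiated skin, and the region before their start was not searched.

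The interferons themselves were hardly counted. Of 21 interferon ligand genes listed, 17 had no count in any library and 0 could be tested. Ifnab had 1 count in irradiated DE2 and Ifnz 1 count in irradiated WT skin. Ifnk, the keratinocyte interferon kappa, had 3 counts in irradiated DE2, 3 in irradiated WT, 4 in untreated DE2 and 2 in untreated WT skin. Ifng, the type II interferon, had 4 counts in irradiated DE2, 0 in irradiated WT, 0 in untreated DE2 and 4 in untreated WT skin. At totals of 2809142 to 4741726 counts a library, differences in these ligands were not detectable.

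Of 10 genes of receptors and their signalling, 1 was higher in irradiated DE2 than in WT skin (10%, against 2.35% of all genes) and 0 were lower. Jak1, the kinase shared by the interferon receptors, was higher by 0.96 ± 0.20 (adjusted p = 0.0156) there and by 0.75 ± 0.19 (adjusted p = 0.0125) in untreated skin. In untreated DE2 skin Ifngr1 (1.40 ± 0.28), Jak2 (1.29 ± 0.29) and Ifngr2 (1.02 ± 0.28), the type II receptor chains and a kinase, were higher too, 4 of 10 in all (40%, against 11.8% of all genes). The receptor chain genes Ifnar1 and Ifnar2 did not pass, at -0.10 ± 0.39 and 0.96 ± 0.37 in irradiated and -0.45 ± 0.39 and 0.37 ± 0.38 in untreated skin. With UVB in DE2, Ifngr1 fell by 1.22 and Ifngr2 fell by 0.88 on the log2 scale.

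Of 15 tested sensors, adaptors and inducing factors, 2 (13.3%, against 2.35% of all genes) were higher in irradiated DE2 than in WT skin, Zbp1, a sensor of Z-form nucleic acid, by 2.14 ± 0.40 and the transcription factor gene Irf1 by 1.83 ± 0.34. In untreated skin 4 were higher (26.7%, against 11.8% of all genes), Mavs (1.40 ± 0.38), Zbp1 (1.48 ± 0.40), Ifi204 (1.21 ± 0.34) and Irf1 (1.15 ± 0.33). Zbp1 alone of the 15 rose with UVB in DE2, by 1.39 ± 0.38, a share of 6.67% against 14.4% of all genes. Of 10 tested brakes on the pathway, Samhd1, a dNTP hydrolase gene, and Socs3, a suppressor of cytokine signalling, were higher in DE2 at both sites, by 1.87 ± 0.25 and 1.84 ± 0.39 in irradiated and 1.03 ± 0.25 and 1.20 ± 0.38 in untreated skin. That is 20% of the 10 at either site, against 2.35% of all genes in irradiated and 11.8% in untreated skin. Rnaseh2a, a subunit of the enzyme that removes ribonucleotides from DNA, was lower in untreated DE2 skin (-1.14 ± 0.24) and passed in the interaction at 1.13 ± 0.33 (adjusted p = 0.0425). Samhd1, Rnaseh2a and Rnaseh2c rose with UVB in DE2 (30%, against 14.4% of all genes).

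Of 44 further interferon-induced genes outside the set, all tested, 7 were higher in irradiated DE2 than in WT skin (15.9%, against 2.35% of all genes) and 0 were lower. The smallest p-values were those of Rnf213 (2.09 ± 0.32), Slfn4 (6.02 ± 0.89) and Zbp1. In untreated skin 6 were higher, 13.6% against 11.8% of all genes and so near that share, and the smallest p-values were those of Ube2l6 (1.15 ± 0.27), Zbp1 and Ifi204. With UVB in DE2, 8 were higher, 18.2% against 14.4% of all genes and also near it, with the smallest p-values for Slfn4 (5.77 ± 0.87), Slfn2 (1.91 ± 0.32) and Ly6e (0.91 ± 0.21), and Ifitm6 was lower (-2.55 ± 0.63). None passed with UVB in WT. Of 15 tested genes induced mainly by interferon gamma, 1 (Irf1) was higher in irradiated DE2 than in irradiated WT skin (6.67%, against 2.35% of all genes). In untreated skin 11 were higher in DE2 than in WT (73.3%, against 11.8% of all genes), led by Iigp1 (2.99 ± 0.70), Igtp (2.43 ± 0.59) and Irgm2 (1.75 ± 0.43). Iigp1 passed in the interaction with a negative value (-3.18 ± 0.95, adjusted p = 0.0486).

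Markers of other cell types also differed between irradiated DE2 and WT skin. Of 5 general leukocyte markers, 4 were higher in irradiated DE2 than in WT skin (80%, against 2.35% of all genes). In untreated skin 0 of the 5 passed, and all 5 had positive log2 fold changes, from 0.49 to 0.68. The 5 summed to 322 to 428 CPM in irradiated DE2, 106 to 121 CPM in irradiated WT, 82.0 to 182 CPM in untreated DE2 and 52.3 to 102 CPM in untreated WT. Neutrophil markers summed to 4073 to 4403 CPM in irradiated DE2, 183 to 380 CPM in irradiated WT, 10.2 to 163 CPM in untreated DE2 and 32.2 to 54.4 CPM in untreated WT. Monocyte and macrophage markers summed to 1010 to 1378 CPM in irradiated DE2, 507 to 945 CPM in irradiated WT, 527 to 1110 CPM in untreated DE2 and 271 to 772 CPM in untreated WT. T cell markers summed to 68.2 to 76.4 CPM in irradiated DE2 and 15.8 to 27.1 CPM in irradiated WT, with Trbc2 higher, and NK cell markers to 19.7 to 28.8 CPM in irradiated DE2 and 0 to 5.21 CPM in irradiated WT, with Nkg7 higher. Endothelial markers summed to 89.5 to 163 CPM in irradiated DE2 and 42.3 to 55.3 CPM in irradiated WT, with Emcn higher. No fibroblast marker passed there, and 4 of 6 separated the groups with DE2 above WT, which held for 11.9% of all genes. Hair follicle markers summed to 6669 to 10655 CPM in irradiated DE2 and 15780 to 18075 CPM in irradiated WT. Of the 9, 2 were lower in DE2 (22.2%, against 0.608% of all genes). In all 9 the DE2 libraries lay below the WT libraries, and the share over all genes was not worked out for that count. In untreated skin 0 of the T cell, NK cell, fibroblast and endothelial markers passed. Of 10 monocyte and macrophage markers 1 was higher in DE2 there, Fcgr1, 10% against 11.8% of all genes and so near that share. In irradiated skin 1 of the 10 was higher in DE2, Ly6c2 (10%, against 2.35% of all genes). Of 5 keratinocyte markers 4 were higher in irradiated DE2 than in WT skin (80%, against 2.35% of all genes). Their sums were 20497 to 25777 CPM in DE2 and 4388 to 7060 CPM in WT. Of 5 markers of plasmacytoid dendritic cells, potent interferon producers, 3 could be tested and 0 passed. Their sums were 87.3 to 123 CPM in irradiated DE2 and 90.3 to 110 CPM in irradiated WT skin. A summed level is weighted to the most abundant markers of its list and is not a count of cells. The part of these cell types in the levels of the interferon stimulated genes was not tested.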

How the data were processed

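Raw read counts per Ensembl gene were deposited by the authors for 12 libraries and are unnormalized. The submitters' processing notes name GRCm38, HTSeq 2.0.2, SAMtools 1.16, Picard 3.1.0 and Trimmomatic 0.39. Aligner, annotation release, strandedness and treatment of duplicates are not given in the sources here, so counts of overlapping or near-identical genes are uncertain. Of 53465 identifiers 53274 had a symbol in a GENCODE table of that build.

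Testing used edgeR 4.0.16 under R 4.3.3 (filter on low counts over the groups, TMM scaling, robust quasi-likelihood fit of 1 mean per group to all 12 libraries, 8 residual degrees of freedom). This tested 15126 genes at a common dispersion of 0.128, a biological coefficient of variation of 35.8%. Benjamini-Hochberg adjustment ran over all of them. The SE of a log2 fold change was worked back from the test statistic. CPM are counts scaled to a common TMM-adjusted library size. A group with 0 counts was given a floor of 3 counts over the group, and floors cover counting error only. Alternatives used DESeq2 1.42.0 and limma 3.58.1 voom among others.

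Per role, values in all libraries are given for the gene with the smallest p in each genotype comparison, for genes past the interaction threshold and for genes with no count in a whole group. Members, gene lists and tests were chosen with earlier results of these data known. Replicates are numbered in accession order. Promoter windows are from RefSeq. No window was held for Ifi27l2a, Dhx58, Oas2, Parp9, Mx2, Rtp4, Parp14, Mx1 and Usp18.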

Additional observations from a re-analysis of the deposited data

Results flagged for a closer look

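The UVB effect on Ifitm1 differed between the genotypes by a test of the difference itself, the 1 such call among the 43 genes tested. That is 2.33%, against 5.64% of all genes with a positive and 4.84% with a negative interaction. Trim30b, among the 43, has no usable estimate. DESeq2 called 2, against 1204 of all 15126 genes with a positive interaction. The interaction was 3.63 ± 0.61 on the log2 scale (edgeR, Benjamini-Hochberg adjusted p = 0.00181), with Ifitm1 higher in 3 of 3 irradiated DE2 libraries than in the 9 others. Over 21 alternatives it ranged from 2.93 with the muscle score as a covariate to 4.02 without untreated WT replicate 3. The call was lost in 2 of them, with the hair follicle score (adjusted p = 0.692) and with the muscle score (adjusted p = 0.0993). Groups of 3 libraries are too small for a test of single outlying libraries.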

How the results depend on the processing

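No member was lower under any alternative in any comparison. No paired analysis was possible because the labels give no replicate numbers. For genotype in irradiated skin, 21 members were higher with no filter, 5 to 9 with 1 library left out, and 14 when UVB_WT replicate 2 and Untreated_DE2 replicate 1 were both left out. Over all genes 665 of 28874 were higher with no filter and 543 of 15494 with both left out. For genotype in untreated skin, 4 were higher by library totals, 7 with limma voom, 7 in a fit of the libraries compared alone, 7 with those 2 libraries left out, 3 with the muscle score, 0 with the hair follicle score, and 4 to 13 with a library left out. Over all genes 788 were higher by library totals, 1954 with limma voom, 1664 in the fit alone, 2201 with those 2 left out and 20 with the muscle score. For UVB in DE2, 3 were higher with the muscle score, against 557 of all 15126 genes, 0 with the hair follicle score and 12 to 17 with a library left out. For UVB in WT, 2 were higher with DESeq2, against 19 of all 15126 genes, and 4 with no filter, against 102 of all 28874. For the interaction, 2 were higher with DESeq2, 2 with the same 2 libraries left out, 0 with either score, and 1 to 2 with a library left out. Over all genes 1204 were higher with DESeq2, 1163 with those 2 libraries left out and 236 with the muscle score. With the hair follicle score, the log2 fold changes with UVB in DE2 turned to -0.17 for Rsad2, -0.48 for Ifitm3, -0.36 for Oasl2, -0.47 for Trim30a and -0.19 for Ifit1, and the members' median in the interaction to -0.62. That score runs with the untreated DE2 group, and 0 of 15126 genes passed with it in untreated genotype, UVB in DE2 and the interaction. Scaling by library totals moved the median log2 fold change of all genes in untreated genotype to -0.37, against 0.03, and that of the members to 0.49, against 0.91. In UVB in DE2 it moved them to 0.26, against 0.02, and to 1.39, against 1.17. In the interaction it moved them to 0.38, against 0.04, and to 0.78, against 0.50, with calls over all genes of 1220 higher and 368 lower, against 853 and 732. The cause of the other shifts was not tested. Members at a few CPM, such as Mx2, Oas3, Ifi44 and Herc6, are limited by depth.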
